A study of Homo sapiens with 6 samples.

Results

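The genes described here encode the proteasome and its helpers. They are the genes whose symbol starts with PSMA, PSMB, PSMC, PSMD, PSME, PSMF or PSMG, 49 of 17687 genes named on the array, each read by 1 probe set. Of these, 44 are subunits, activators, inhibitors or assembly chaperones. The other 5 match by symbol but are in none of these classes: the antisense RNAs PSMA3-AS1, PSMB8-AS1 and PSMG3-AS1, and the genes PSMC3IP and PSME3IP1. PSMC5, PSMD7, PSMD13 and PSME2 were not analysed here.

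The proteasome is the protease complex that degrades proteins tagged with ubiquitin. A barrel of alpha and beta rings (PSMA and PSMB genes) holds the cutting sites, and a regulatory cap (PSMC and PSMD genes) binds, unfolds and feeds in the substrate. Interferon signalling is known to induce PSMB8, PSMB9 and PSMB10, which replace the cutting subunits PSMB5, PSMB6 and PSMB7 and so form the immunoproteasome, and PSME1, part of an activator cap. Immunoproteasomes supply peptides for presentation on MHC class I.

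RNA was measured on 6 Clarion S arrays in 3 lung cancer cell lines, 1 array for each line and condition. PC-9 and HCC827, both labelled EGFR mutant, received 0.01 µM erlotinib, an inhibitor of the EGFR kinase, for 6 hours or served as control. H322, labelled wild-type, received the receptor's ligand EGF for 6 hours, at 100 µg/ml in the labels' own unit, or served as control. The labels describe culture in medium with TNFa and do not say whether controls had it, so TNFa and the agents cannot be told apart. The p-values rest on how far the PC-9 and HCC827 changes differed, which may be partly technical, and on the spread of other genes. Nothing in the labels says that any culture was repeated, so spread within a line was not measured. The number of arrays limits the precision.

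Signals are given as log2(intensity + 1), and a gene was called measurable on an array where it exceeded the 95th percentile of its 612 negative control probe sets, which lay between 6.92 and 7.47. All 6 epithelial markers (EPCAM, CDH1, KRT7, KRT8, KRT18 and KRT19) were measurable on each array. Of 4 lung lineage markers 2, NKX2-1 and NAPSA, were measurable in HCC827, and 0 in PC-9 and H322. PTPRC, the defining leukocyte marker, was not measurable on any array. Of 5 leukocyte markers with a probe set, 0 to 2 per array exceeded the negative controls, and their summed signal was 38.0 to 38.2 in PC-9 and 34.7 to 35.3 in HCC827, against 25.7 to 25.8 in H322. Of 6 fibroblast and endothelial markers 0 to 2 per array did, with sums between 34.7 and 37.2. Proteasome genes were among the brighter ones: 43 of 49 were measurable on all 6 arrays, with a median signal of 12.81, against 10.77 for the 7405 named genes of that kind. PSMA8, an alpha subunit of the testis, and PSMB11, a cutting subunit of the thymus, were not measurable on any array.

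The first question is how far the lines differ in their proteasome genes before treatment. PSMB8 and PSMB10 differed most, and in different orders. PSMB8 had a signal of 12.41 in the PC-9 control and 14.13 in the HCC827 control, against 5.61 in the H322 control. H322 lay below its negative controls, so against H322 the fold is a bound: at least 30.7-fold higher for PC-9, and at least 101-fold for HCC827. PSMB8 is read by 1 probe set, so a failure of that probe set in H322 cannot be told apart from low RNA. The summed leukocyte markers were likewise higher in both EGFR-mutant lines than in H322, but higher in PC-9 than in HCC827. That sum rested mostly on CD68 and LAPTM5. In the controls CD68 had 11.18 in PC-9 and 13.22 in HCC827, against 6.38 in H322, and LAPTM5 had 12.55 and 5.63, against 4.20. PTPRC, CD3E and CD14 lay below the negative controls on every array. The part of these markers in the PSMB8 difference was not tested. PSMB10 was highest in H322, with 8.87 in PC-9 and 11.32 in HCC827, against 13.63 in H322. Relative to H322, PC-9 was 27.1-fold lower and HCC827 4.96-fold lower, while PC-9 was 5.46-fold lower than HCC827. PSMB9, which lies near PSMB8 in the MHC region, had 12.05 in PC-9 and 13.93 in HCC827, against 12.63 in H322. HCC827 was thus highest, 2.47-fold above H322, and PC-9 was 1.49-fold lower than H322. PSME1 had 12.69 in PC-9 and 14.02 in HCC827, against 14.54 in H322, and PC-9 was 3.61-fold lower than H322. There is 1 control array per line, so none of these differences has a replicate check or a test.

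**Figure D1:**
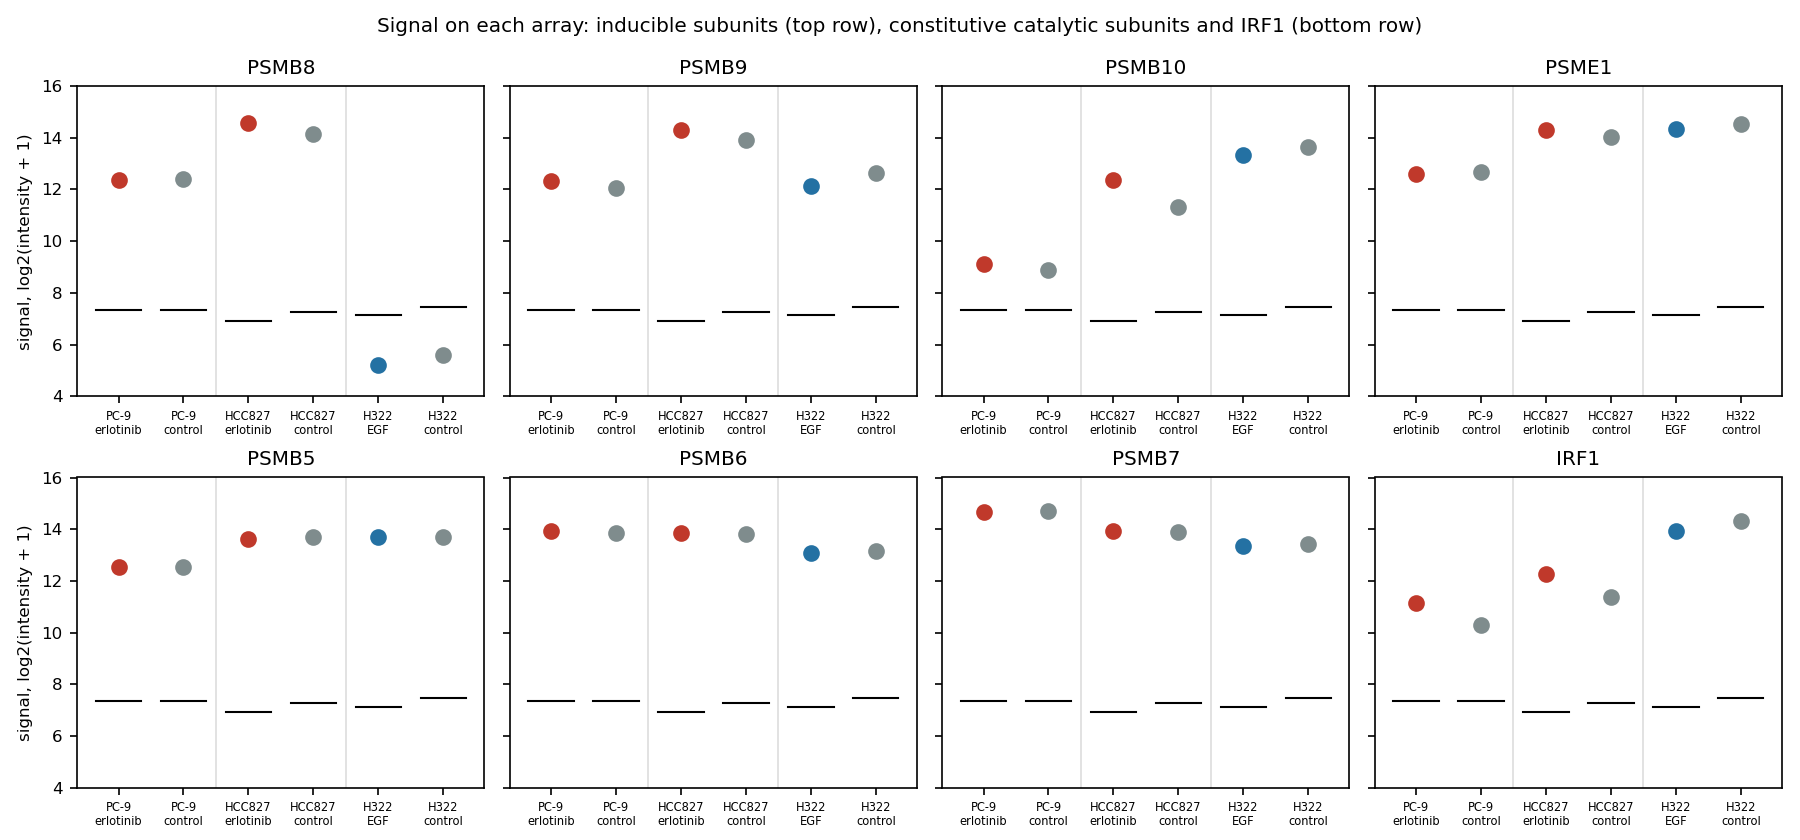
Signal, log2(intensity + 1), of PSMB8, PSMB9, PSMB10 and PSME1 (top row) and of PSMB5, PSMB6, PSMB7 and IRF1 (bottom row) on each of the 6 arrays. Each point is 1 array (red erlotinib, blue EGF, grey control) and each bar is the 95th percentile of that array's negative controls. PSMB8 lies below the bar on both H322 arrays and above it on the other 4. Among controls, PSMB10, PSME1, PSMB5 and IRF1 are lowest in PC-9 and highest in H322, though PSMB5 hardly differs between HCC827 and H322.

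Promoters of these 4 genes are shown because all 4 were higher with erlotinib in HCC827, and the 3 measurable in H322 were lower there with EGF, as the values given later show. They run from 250 bases before to 50 bases after the annotated start in RefSeq (GRCh38.p14), where 43 of the 49 genes had an entry. Capitals mark matches on either strand to GAAANNGAAA, the core of the interferon-stimulated response element that IRF factors bind, TTCNNNGAA, the gamma-activated site of interferon signalling, TGACNNNGC, an antioxidant response element core, CCGGAAG, a motif of ETS factors, and CCAAT. The windows are PSMB8 (chr6:32844630-32844929, minus strand), PSMB9 (chr6:32853942-32854241, plus strand), PSMB10 (chr16:67936801-67937100, minus strand) and PSME1 (chr14:24135944-24136243, plus strand).
PSMB8: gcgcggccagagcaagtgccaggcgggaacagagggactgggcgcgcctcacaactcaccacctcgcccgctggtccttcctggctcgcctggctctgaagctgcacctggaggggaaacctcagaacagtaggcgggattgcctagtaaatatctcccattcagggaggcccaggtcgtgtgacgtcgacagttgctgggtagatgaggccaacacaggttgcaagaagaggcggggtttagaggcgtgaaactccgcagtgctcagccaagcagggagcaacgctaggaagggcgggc
PSMB9: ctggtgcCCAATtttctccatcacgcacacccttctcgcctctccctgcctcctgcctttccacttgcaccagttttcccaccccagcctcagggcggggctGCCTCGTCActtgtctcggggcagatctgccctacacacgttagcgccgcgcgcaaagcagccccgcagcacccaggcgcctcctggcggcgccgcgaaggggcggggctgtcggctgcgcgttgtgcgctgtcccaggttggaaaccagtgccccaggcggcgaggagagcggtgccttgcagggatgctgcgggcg
PSMB10: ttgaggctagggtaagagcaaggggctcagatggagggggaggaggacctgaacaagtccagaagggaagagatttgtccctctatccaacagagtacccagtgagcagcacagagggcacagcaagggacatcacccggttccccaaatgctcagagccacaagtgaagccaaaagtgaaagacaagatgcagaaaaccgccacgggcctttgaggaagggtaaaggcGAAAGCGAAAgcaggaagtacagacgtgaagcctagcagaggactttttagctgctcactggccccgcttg
PSME1: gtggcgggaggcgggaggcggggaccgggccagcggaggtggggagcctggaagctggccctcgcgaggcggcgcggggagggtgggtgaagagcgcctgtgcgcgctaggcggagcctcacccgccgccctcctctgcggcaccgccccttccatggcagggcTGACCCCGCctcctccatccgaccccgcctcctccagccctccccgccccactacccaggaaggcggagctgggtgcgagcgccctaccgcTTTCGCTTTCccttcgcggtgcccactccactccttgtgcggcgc

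PSMB10 and PSME1 each held 1 match to GAAANNGAAA, at -21 to -12 in PSMB10 and at 5 to 14 in PSME1, counted from 0 at the annotated start. PSMB9 held 1 match to TGACNNNGC, at -148 to -140, and 1 to CCAAT, and PSME1 also held 1 to TGACNNNGC. PSMB8 held none of the 5 motifs, which says only that these letters are not in this window. GAAANNGAAA occurred in 3.65% of 27305 promoters of this length and in 6 of the 43 proteasome promoters, and TTCNNNGAA in 7.88% and in 6 of 43. TGACNNNGC occurred in 13.6% and in 13 of 43, CCGGAAG in 10.7% and in 13 of 43, and CCAAT in 35.7% and in 20 of 43. A match describes the letters and is no evidence of binding in these cells.

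IRF1, the transcription factor known to drive many interferon responses, had a control signal of 10.29 in PC-9 and 11.39 in HCC827, against 14.30 in H322. TAP1, which carries peptides to MHC class I, had 8.88 and 10.44, against 11.62 in H322. Both had the line order of PSMB10, which PSMB8 and PSMB9 did not share. PSME1 had that order too, as did PSMA1, PSMA3, PSMA6, PSMC6, PSMG1, PSMG3 and, by a small margin, PSMB5, so it is not particular to the inducible genes. B2M, the light chain of MHC class I, differed less, by 0.11 between PC-9 and H322 and by 0.47 between HCC827 and H322.

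The cutting subunits of the constitutive proteasome differed less. PSMB5 had a control signal of 12.54 in PC-9 and 13.70 in HCC827, against 13.71 in H322. PSMB6 had 13.86 and 13.81, against 13.15, and PSMB7 had 14.72 and 13.89, against 13.44 in H322. Only PC-9 stood more than 2-fold from H322 among these, for PSMB5 (2.26-fold lower) and PSMB7 (2.42-fold higher).

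In the whole set, 5 of 49 genes were at least 2-fold higher and 5 at least 2-fold lower in both EGFR-mutant controls than in the H322 control. Over all named genes these shares were 5.7% and 7.55%, both somewhat under the set's, which rest on 5 genes each. Among genes measurable on all 6 arrays, 3 of 43 were that much higher, near the 7.05% of 7405 genes. In the same genes 5 of 43 were that much lower, against 8.94%. Higher were PSMB8, the ATPase PSMC2, the base assembly chaperones PSMD5 and PSMD10, and PSMB8-AS1, whose signals of 6.09 in PC-9 and 7.18 in HCC827, against 4.02 in H322, were all below the negative controls. PSMC2 had 14.62 and 14.31, against 12.88 in H322, and PSMD5 had 12.18 and 12.68, against 11.15. PSMF1, an inhibitor of the core particle, had 13.31 and 13.81, against 12.34 in H322. Lower were PSMB10, PSMG3, PSMC3, PSMA1 and PSMA3-AS1. PSMG3, a chaperone of core assembly, had 10.17 and 11.05, against 12.48 in H322. The ATPase PSMC3 had 11.80 and 11.15, against 12.83, and the alpha subunit PSMA1 had 10.87 and 11.00, against 12.20 in H322. PSMA6, another alpha subunit, had 13.83 in PC-9 and 15.58 in HCC827, against 15.98 in H322, so its lower mean rested on PC-9. Between the EGFR-mutant controls, 2 of the 49 were at least 2-fold higher in PC-9 (14.3% of all named genes) and 10 at least 2-fold lower (12.9%). All 4 inducible genes were among those 10.

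By role, the alpha ring had negative medians in both EGFR-mutant controls, while the median of the lid was near 0 in PC-9 and that of the chaperones near 0 in HCC827. The difference from H322 had a median of -0.94 in PC-9 and -0.40 in HCC827 over the 7 alpha ring genes, with -0.06 and 0.02 over all named genes. Over the 6 lid genes it was 0.00 in PC-9 and 0.79 in HCC827, and over the 7 assembly chaperones it was 0.76 in PC-9 and 0.00 in HCC827. The 5 ATPases, as mutant mean minus H322, ran from -1.35 for PSMC3 to 1.59 for PSMC2, so members of 1 ring stood apart in opposite directions. PSMG2 and PSMG4 differed little between HCC827 and H322, at -0.07 and 0.00, but were higher in PC-9 by 0.79 and 0.43. PSMC3IP, a recombination factor and not a subunit, was measurable in HCC827, at 8.01 with erlotinib against 8.65 in control, and on no other array. Among the 43 genes measurable on all arrays the median size of the difference between mutant mean and H322 was 0.65, against 0.59 for the 7405.

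**Figure D2:**
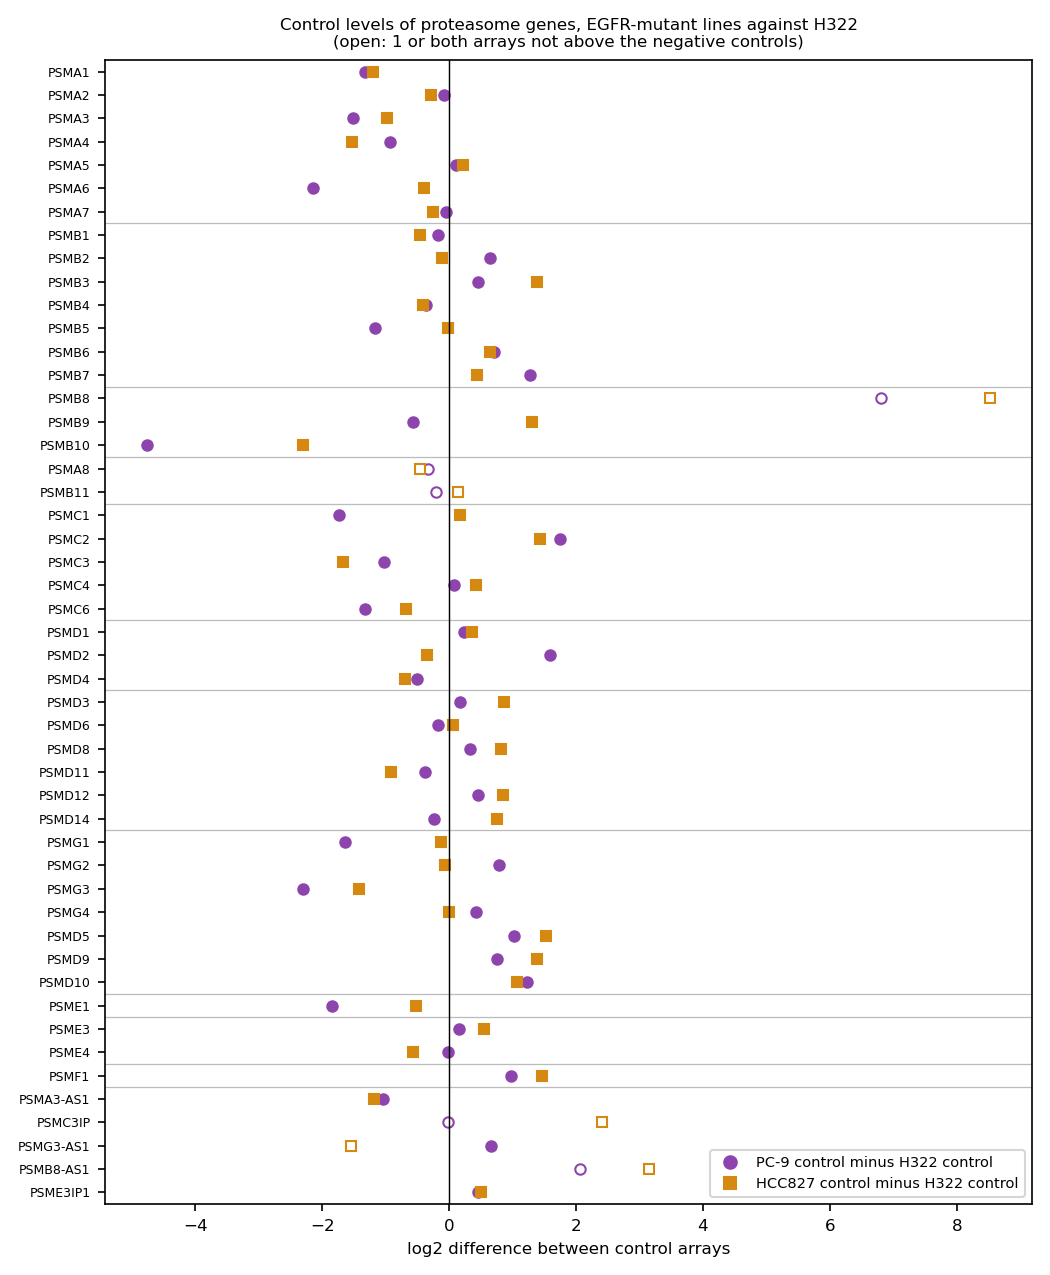
Difference in control signal of each of the 49 proteasome genes, PC-9 minus H322 (circles) and HCC827 minus H322 (squares), on the log2 scale. Genes are ordered by role, from the alpha ring at the top to the antisense RNAs, PSMC3IP and PSME3IP1 at the bottom. Open points have 1 or both arrays not above the negative controls. PSMB8 at the right and PSMB10 at the left stand farthest from 0.

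The second question is what erlotinib did to these genes in the EGFR-mutant lines. Proteasome genes stayed close to their control signals. None of the 49 passed limma at an adjusted p of 0.05 (0 higher and 0 lower), where 1.48% of all named genes did (0.565% higher and 0.916% lower). With a share that low, 0 of 49 does not set these genes apart. At an unadjusted p under 0.05, limma found 3 higher and 3 lower, where 14.4% of all named genes passed (7.53% higher and 6.83% lower), a share near that of the set. Among the genes measurable on all arrays, limma found 2 higher and 3 lower of 43 at that level, against 22.4% of 7405. The median change over the 49 genes was -0.05 in PC-9 and -0.07 in HCC827, with 0.01 and 0.00 over all named genes. Among genes measurable on all arrays the median size of the change, without its sign, was 0.12 in PC-9 and 0.16 in HCC827 for the 43 proteasome genes, and 0.22 and 0.28 for the 7405. The brighter signal of the proteasome genes moves with this, and its part in the difference was not tested. In both lines alike 18 of 49 genes were lower (29.6% of all named genes) and 10 were higher (30.0%).

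**Figure D3:**
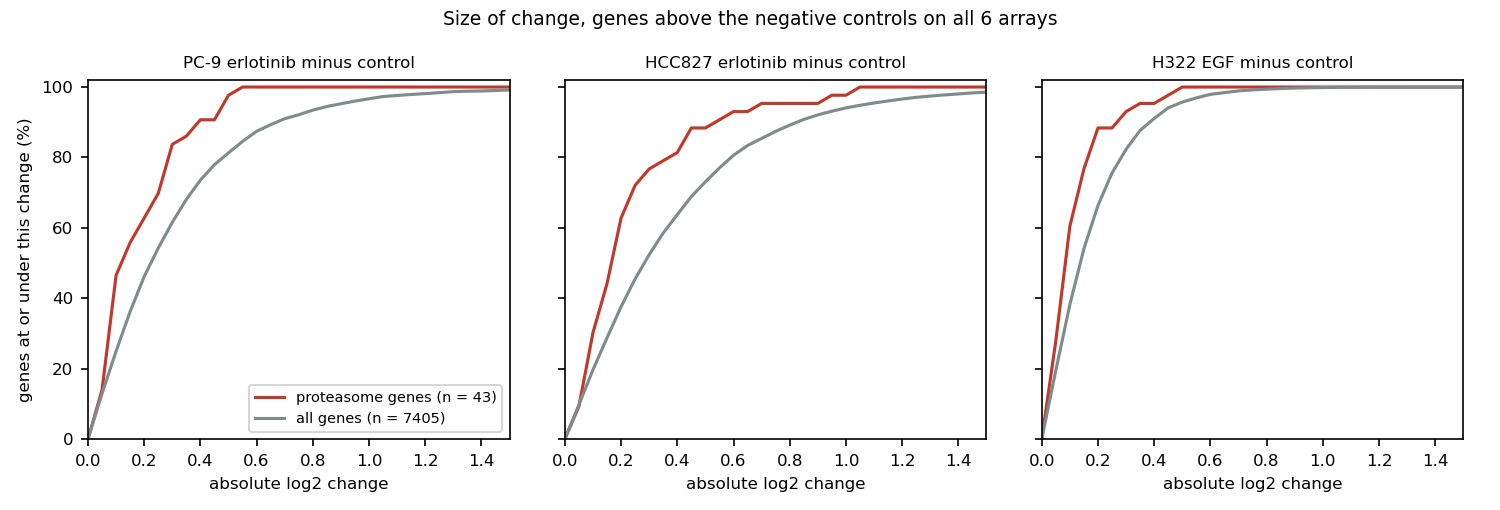
Share of genes (%) whose change, without its sign, lies at or under the value on the horizontal axis (log2), in PC-9 and HCC827 with erlotinib and in H322 with EGF, for 43 proteasome genes (red) and 7405 named genes (grey), all measurable on the 6 arrays. At 0.50 the red line lies above the grey one in each panel: 97.7% of the proteasome genes and 81.3% of all genes differed by 0.50 or less in PC-9, and 88.4% and 73.1% did in HCC827.

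The lowest values came from the regulatory cap and its relatives. PSMD12, a subunit of the lid, had 11.81 with erlotinib against 12.27 in control in PC-9, and 12.09 against 12.67 in HCC827. Its mean change was -0.52 ± 0.15 (limma's moderated SE, n = 2 lines), with an unadjusted p of 0.0092 and an adjusted p of 0.163 in limma. PSMD14, the lid enzyme that removes ubiquitin chains from substrates, had 11.14 with erlotinib against 11.65 in PC-9, and 12.22 against 12.65 in HCC827 (mean -0.47 ± 0.15, limma adjusted p = 0.219). PSME3, an activator of nuclear core particles, had 12.33 with erlotinib against 12.79 in PC-9, and 12.64 against 13.19 in HCC827 (mean -0.51 ± 0.14, limma adjusted p = 0.148). The erlotinib array was lower in both lines for these 3 genes, by 1.34-fold to 1.49-fold, and none of them passed.

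The promoters of these 3 genes, with the same marks, are PSMD12 (chr17:67366528-67366827, minus strand), PSMD14 (chr2:161308175-161308474, plus strand) and PSME3 (chr17:42833147-42833446, plus strand). They are shown because these genes had the lowest mean changes.
PSMD12: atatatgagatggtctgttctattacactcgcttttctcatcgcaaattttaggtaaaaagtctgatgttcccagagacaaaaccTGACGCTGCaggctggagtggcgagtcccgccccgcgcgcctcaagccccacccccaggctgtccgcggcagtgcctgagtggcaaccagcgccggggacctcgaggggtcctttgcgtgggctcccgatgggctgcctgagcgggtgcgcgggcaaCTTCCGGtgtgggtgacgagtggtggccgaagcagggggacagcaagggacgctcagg
PSMD14: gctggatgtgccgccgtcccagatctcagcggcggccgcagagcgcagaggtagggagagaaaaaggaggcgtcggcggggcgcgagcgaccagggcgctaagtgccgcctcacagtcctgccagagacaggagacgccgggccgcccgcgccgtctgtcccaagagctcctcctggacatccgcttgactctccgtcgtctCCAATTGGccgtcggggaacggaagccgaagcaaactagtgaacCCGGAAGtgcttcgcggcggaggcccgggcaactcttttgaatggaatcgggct
PSME3: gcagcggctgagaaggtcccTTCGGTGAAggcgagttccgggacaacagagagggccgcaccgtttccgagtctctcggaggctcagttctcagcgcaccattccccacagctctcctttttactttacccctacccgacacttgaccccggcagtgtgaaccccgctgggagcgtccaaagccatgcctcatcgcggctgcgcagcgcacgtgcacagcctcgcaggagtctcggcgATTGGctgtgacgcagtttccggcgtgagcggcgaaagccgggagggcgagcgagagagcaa

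PSMD12 held 1 match to TGACNNNGC, at -165 to -157, and 1 to CCGGAAG, at -8 to -2. PSMD14 held 1 to CCGGAAG, at -4 to 2, and 2 overlapping matches to CCAAT. PSME3 held 1 to TTCNNNGAA, at -230 to -222, and 1 to CCAAT, at -12 to -8. The 3 promoters had no motif in common among the 5.

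Assembly chaperones of the core particle followed in order, but with lines that stood apart. PSMG3 had 10.17 on both PC-9 arrays, and 10.15 with erlotinib against 11.05 in control in HCC827, a 1.88-fold lower signal there. PSMG1 had 8.11 against 8.30 in PC-9 and 9.14 against 9.81 in HCC827. PSMG2 went the other way, at 13.80 against 13.42 in PC-9 and 12.66 against 12.56 in HCC827. Limma adjusted p for the 3 chaperones lay between 0.475 and 0.512.

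PSMB10 and PSMB9 had the highest mean changes among the protein-coding proteasome genes. PSMB10 had 9.13 with erlotinib against 8.87 in control in PC-9, and 12.35 against 11.32 in HCC827, or 1.20-fold and 2.05-fold higher. Its mean change was 0.65 ± 0.23, with a limma adjusted p of 0.261. PSMB9 had 12.32 against 12.05 in PC-9 and 14.29 against 13.93 in HCC827 (mean 0.32 ± 0.13, limma adjusted p = 0.34). PSMB8 had 12.36 against 12.41 in PC-9 and 14.56 against 14.13 in HCC827 (mean 0.19 ± 0.16, limma adjusted p = 0.662). PSME1 had 12.60 against 12.69 in PC-9 and 14.28 against 14.02 in HCC827 (mean 0.08 ± 0.14, limma adjusted p = 0.867). In HCC827 all 4 were higher with erlotinib, where 8763 of 17687 named genes were. In PC-9 PSMB9 and PSMB10 were higher, where 8984 of the named genes were. None passed the threshold. After signals below the negative controls were set to that level, PSMB10, PSMB8-AS1, PSMD12 and PSME3 passed limma. PSMB8-AS1 also did after quantile normalization. Those settings called 1115 and 954 of all 17687 genes, against 262 in the reported fit, so these passes do not set the members apart.

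The subunits they replace stayed near 0. PSMB5 had 12.54 on both PC-9 arrays, and 13.63 with erlotinib against 13.70 in HCC827. PSMB6 had 13.95 against 13.86 in PC-9 and 13.86 against 13.81 in HCC827. PSMB7 had 14.68 against 14.72 in PC-9 and 13.93 against 13.89 in HCC827. The change of PSMB8 minus that of PSMB5 was -0.06 in PC-9 and 0.51 in HCC827. For PSMB9 minus PSMB6 it was 0.17 and 0.31, and for PSMB10 minus PSMB7 it was 0.30 and 0.995. These differences of changes have 1 value per line and no test.

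PSMB8-AS1, the RNA antisense to PSMB8, had the highest mean change of the set, 1.20 ± 0.37 (limma adjusted p = 0.193). It was measurable only on the HCC827 erlotinib array, at 9.11 against 7.18 in control, and so at least 3.56-fold higher there, while 6.56 and 6.09 in PC-9 lay below the negative controls. No member differed by 1.5-fold or more in PC-9 (6.62% of all named genes were that much higher and 7.19% lower). In HCC827 2 did so upward, PSMB10 and PSMB8-AS1 (10.5% of all named genes), and 3 downward, PSMG3, PSMG1 and PSMC3IP (9.82%).

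By class, medians of the alpha ring, the constitutive beta ring and the ATPases lay closest to 0. The 3 inducible cutting subunits had medians of 0.26 in PC-9 and 0.43 in HCC827. The 2 activators PSME3 and PSME4 had -0.37 and -0.38, and the 7 assembly chaperones -0.03 and -0.18. The 7 alpha ring genes had medians of -0.12 in PC-9 and -0.08 in HCC827, and 5 of 7 were lower in both lines. The 7 constitutive beta ring genes had medians of 0.01 and 0.06, and the HCC827 median was -0.01 with arrays centred on their medians. Across all 28 constitutive subunits, mean changes ran from -0.52 for PSMD12 to 0.19 for the ATPase PSMC6, which had 10.77 against 10.47 in PC-9 and 11.18 against 11.10 in HCC827. The 5 ATPases had medians of 0.06 and -0.03, and PSMC1 was lower in both lines, at -0.25 and -0.20. The 3 subunits of the base other than ATPases spread from -0.30 for PSMD1, the large scaffold, to 0.19 for the ubiquitin receptor PSMD4, as mean changes. The 6 lid genes had medians of -0.17 and -0.28, and 4 of 6 were lower in both lines: PSMD6, PSMD11, PSMD12 and PSMD14. PSME4, an activator of core particles on its own, had 11.99 against 12.27 in PC-9 and 11.51 against 11.72 in HCC827. PSMF1 had 13.26 against 13.31 in PC-9 and 13.87 against 13.81 in HCC827. Over the 43 genes measurable on all arrays the changes in the lines correlated at r = 0.56, and over the 7405 genes at 0.59. These are descriptions across genes that share their arrays.

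**Figure D4:**
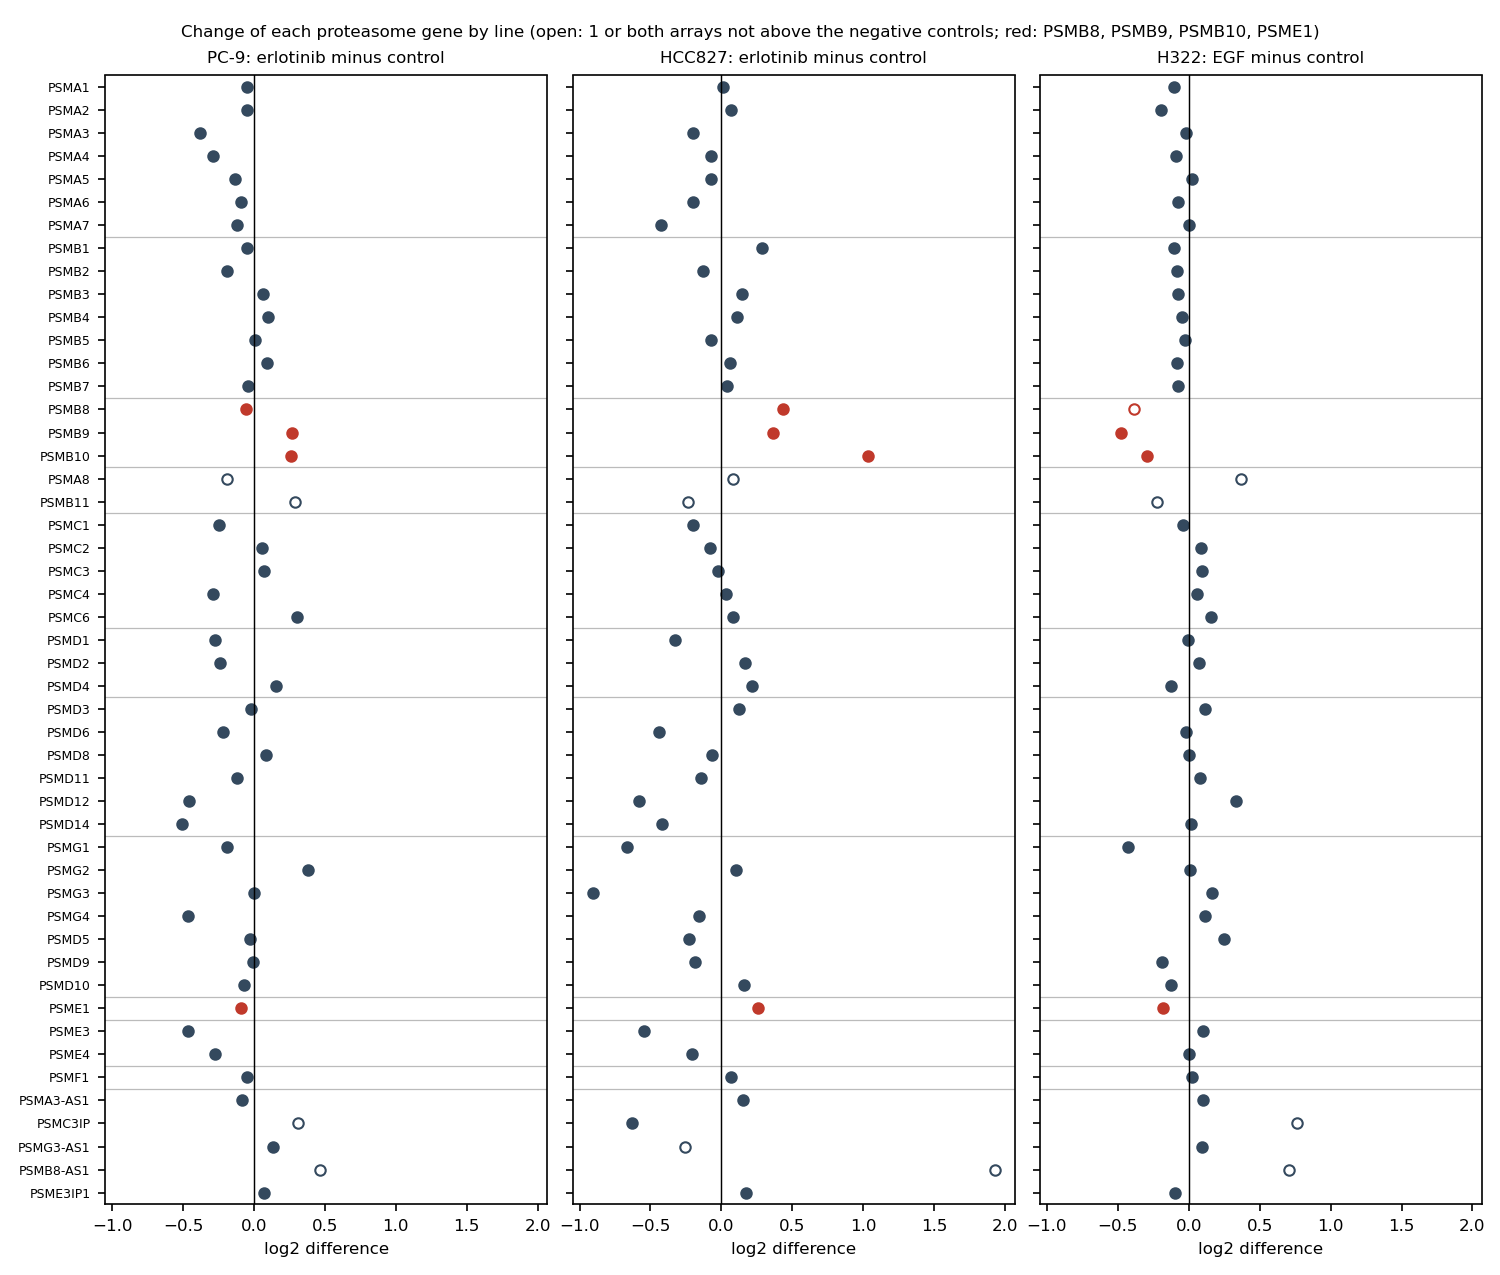
Change of each of the 49 proteasome genes on the log2 scale in PC-9 and HCC827 (erlotinib minus control) and in H322 (EGF minus control), ordered by role. Red marks PSMB8, PSMB9, PSMB10 and PSME1, and open points have 1 or both arrays not above the negative controls. The red points lie between -0.09 and 0.27 in PC-9, at 0.26 or above in HCC827 and at -0.18 or below in H322.

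The third question is what EGF did in H322, where the receptor is labelled wild-type. The 3 inducible genes measurable in H322 were lower with EGF, where 48.9% of all named genes were. PSMB9 had 12.15 with EGF against 12.63 in control, a 1.40-fold lower signal and the lowest change of the set. PSMB10 had 13.33 against 13.63 (1.23-fold lower) and PSME1 had 14.36 against 14.54 (1.14-fold lower). PSMB8 had 5.22 against 5.61, both below the negative controls, which leaves its fold undefined. Each pair is 1 array against 1, with no test and no replicate check.

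The constitutive beta ring differed by less. The change was -0.02 for PSMB5, -0.09 for PSMB6 and -0.08 for PSMB7. All 7 constitutive beta ring genes were lower, with changes of -0.10 to -0.02, where 48.9% of all named genes were lower. The change of PSMB9 minus that of PSMB6 was -0.39, and that of PSMB10 minus PSMB7 was -0.22. Of 14 regulatory cap genes 10 were higher (9 with arrays centred on their medians or quantile normalized), where 9034 of 17687 named genes were. PSMD12 was the highest of these cap genes in change, at 12.15 against 11.82 in control. PSMG1 had 9.51 against 9.94, and PSMD5 had 11.40 against 11.15. PSMC3IP (a change of 0.77), PSMB8-AS1 (4.73 against 4.02), PSMA8 (4.58 against 4.21) and PSMB11 (4.32 against 4.54) also ranked among the 5 highest or lowest, and all lay below the negative controls on both arrays. PSMC3IP and PSMB8-AS1 were the 2 genes at least 1.5-fold higher (3.76% of all named genes), and 0 genes were that much lower (3.49%).

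Of 30 partner genes of the proteasome, 26 had a named probe set, and 0 of them passed limma with erlotinib in either direction (1.48% of all named genes did). The other 4 were not analysed here. IRF1 came closest, at 11.15 against 10.29 in PC-9 and 12.28 against 11.39 in HCC827 (mean 0.88 ± 0.17, limma adjusted p = 0.053), and had 13.94 with EGF against 14.30 in control in H322. TAP1 had 9.12 against 8.88 in PC-9, 10.75 against 10.44 in HCC827 and 11.20 against 11.62 in H322. B2M had mean changes of 0.12 with erlotinib and -0.20 with EGF. The other interferon and peptide supply genes did not all share these directions: TAP2, the partner of TAP1, had changes of -0.57 in PC-9 and 0.01 in HCC827, and the peptide trimming enzymes ERAP1 and ERAP2 had -0.38 and -0.21 in PC-9, all 3 named after their values were seen. The median mean change with erlotinib over the 8 measured genes of that list was 0.06. POMP, the chaperone that matures the core particle, had 13.13 against 13.47 in PC-9 and 12.38 against 12.76 in HCC827 (mean -0.36 ± 0.14, limma adjusted p = 0.287). NFE2L1, the factor known to raise proteasome transcription when the complex is inhibited, had mean changes of 0.18 with erlotinib (limma adjusted p = 0.634) and -0.18 with EGF. At an unadjusted p under 0.05 limma found 3 partners of 26 higher, IRF1, NFE2L2 and ZFAND5, and 1 lower, POMP, a share near the 14.4% of all named genes (7.53% higher and 6.83% lower), and NFE2L2 and ZFAND5 were named after their values were seen.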

How the data were processed

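The authors deposited 1 intensity per probe set and array, on a linear scale. The submitters' processing notes name Affymetrix Expression Console; its settings and any scaling across arrays went unstated in the sources used here. Array medians lay between 148 and 157, and a shift common to most genes would be hidden. Of 24351 probe sets, 17709 carried 1 symbol in the platform annotation, 0 several and 6642 none. The brightest probe set per symbol was kept (17687 genes) as log2(intensity + 1), which understates changes of dim genes.

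Erlotinib was tested with limma 3.58.1 in R 4.3.3 on the 4 EGFR-mutant arrays, with the cell line as block, the spread modelled along the signal, 2-sided p-values and adjustment by Benjamini and Hochberg over all genes. The pairing comes from the cell line: arrays of a line correlated at 0.991 in PC-9 and 0.988 in HCC827, against 0.907 between the controls of the 2 lines. With 1 residual and 6.58 prior degrees of freedom, the SE rests mostly on other genes. EGF has 1 array per condition and no test. Where 1 signal of a pair lay below the negative controls, it was set to their 95th percentile and the fold is a bound. Scripts were tested on simulated data with 200 changed genes. There limma called 73.4% of 2-fold and 100% of 4-fold changes at an adjusted p of 0.05, and 12.9% of its calls were false. With no gene changed, it called at most 19 of 17687. False calls can thus exceed the nominal 5%. The members, gene lists and naming rule were chosen with earlier results of these data known. Named were the inducible genes, PSMB5 to PSMB7, the 5 highest and lowest in each comparison, genes of the classes described, and a few partners. Alternatives were another offset, a filter, other scalings, raised dim signals, averaged probe sets, a constant spread, no block and leaving out a line.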

Additional observations from a re-analysis of the deposited data

How the results depend on the processing

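Of 8 alternative fits, 6 called no proteasome gene at an adjusted p of 0.05 in limma. Among those, the constant spread called 1 of all 17687 genes and no block called 0, so these fits could hardly call a member. Quantile normalization gave 1 higher, PSMB8-AS1 (limma adjusted p = 0.0454), and called 954 genes in all, against 262 in the reported fit. Setting signals below the negative controls to that level gave 2 higher, PSMB10 and PSMB8-AS1 (limma adjusted p = 0.047 and 0.0324), and 2 lower, PSMD12 and PSME3 (0.0492 and 0.0349). That setting called 1115 genes in all, against 262. Its median change over all genes was -0.35 in HCC827 and -0.34 in H322, where the reported fit has 0.00 and 0.01. Genes raised on both arrays of a line differ by the raised levels alone. These were 6.92 with erlotinib against 7.27 in control in HCC827, and 7.13 with EGF against 7.47 in H322. PSMB10, PSMD12 and PSME3 kept their changes of 0.65, -0.52 and -0.51, and only their p-values moved. PSMB8-AS1 had 0.92, against 1.20 in the reported fit. With a constant spread, limma's adjusted p of these 4 genes lay between 0.292 and 0.383, and with no block it was higher still. What moved the p-values was not tested. With no replicate block, limma gave 0 higher and 0 lower at an unadjusted p under 0.05, against 3 and 3, and called 0 of all genes after adjustment. The core particle's median change, -0.027 in the fit reported, was -0.055 with arrays centred on their medians, and PSMB7 was -0.027 there, against 0.00. With 1 line left out, medians were -0.052 to -0.031 for the core particle, -0.17 to -0.076 for the regulatory particle, -0.18 to -0.03 for the assembly chaperones and 0.26 to 0.43 for PSMB8 to PSMB10. No test remains with a single line, so counts of calls have no such value. Signals under the negative controls limit PSMB8 in H322 and PSMB8-AS1 on 5 arrays.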
